A study of Homo sapiens with 18 samples.

Results

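Human colorectal cancer cells of the HT29 line that had received AZ628, a small-molecule inhibitor of RAF kinases, were compared with HT29 cells that had received vehicle. The comparison rests on 6 of the 18 arrays of the series, 3 for each condition, and its members were chosen by the sample titles. HT29 is an established colorectal adenocarcinoma line with an activating BRAF mutation, so both conditions carry that mutation and differ, as far as the labels say, in AZ628 alone. The dose, the duration and the vehicle are not given in the labels, nor is it said that the 3 arrays of a condition came from separate cultures. The p-values therefore measure spread among arrays that may differ for technical reasons only. The other 12 arrays are from WiDr, a line regarded as a derivative of HT29, in groups of 3: vehicle, AZ628, transduction with a control shRNA, and transduction with an shRNA against IKKalpha. WiDr vehicle and WiDr AZ628 serve here as the counterpart of the HT29 comparison. The 6 transduced arrays entered only the estimate of spread and the mean signals by which probe sets were chosen and genes called dim.

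Each value is a log2 signal of 1 probe set of an Affymetrix PrimeView array, so a difference of 1 is a doubling or halving of signal. For each of 18132 genes the probe set with the highest mean over the 18 arrays was used. Probe sets whose names end in _s_at or _x_at may match several transcripts or genes and are called shared here. For changes in HT29, values without them, or averaged over all probe sets of the gene, are given where they change a call or move a change by over 1.5-fold. Changes are AZ628 minus vehicle in HT29 with the standard error (SE) of a limma fit to all 18 arrays, and a gene passed when its Benjamini-Hochberg adjusted p over all 18132 genes was under 0.05. By that rule 4085 genes (22.5%) were higher and 3814 (21%) lower with AZ628, and the median change over all genes was 0.00; with a change of at least 2-fold required as well, 588 genes (3.24%) were higher and 726 (4%) lower. For 4640 genes (25.6%) the groups did not overlap with all 3 AZ628 arrays higher, and for 4268 (23.5%) with all 3 lower. A lack of overlap is therefore common and does not mark out a gene. Over all genes, arrays of the same condition correlated at 0.9971 to 0.9982 and arrays of different conditions at 0.9761 to 0.9788. Array medians lay between 6.03 and 6.08. The 3′ minus 5′ signal of the actin control probe sets, a reading of RNA integrity, was 1.75, 1.64 and 1.29 on the vehicle arrays and 1.26, 1.24 and 1.29 on the AZ628 arrays, and its part in the results was not tested. Because the values were normalized to a common distribution, a change shared by most genes would not show, and because low signals are compressed, changes of dim genes are understated. In extracts of whole cultures, fewer cells of a type and less RNA per cell cannot be told apart.

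The absorptive cells of the intestine arise from dividing crypt cells; as they leave the crypt they stop dividing, build a brush border of microvilli, and make the hydrolases, carriers, lipid-handling proteins and detoxifying enzymes by which food and foreign compounds are taken up and processed. Transcription factors, those of the CDX family among them, drive much of that programme, while signalling through RAF, MEK and ERK kinases and the transcription factor MYC favour growth. Detoxification runs in steps: cytochromes P450 and other oxidases or hydrolases modify a compound, transferases attach glutathione, glucuronic acid or sulfate, and exporters remove it. The aryl hydrocarbon receptor (AHR), which pairs with ARNT, induces some of these enzymes, above all CYP1A1. Transcripts of genes that ERK signalling induces, called MAPK output here, fell in HT29. All 18 measured genes of that list were lower with AZ628, against 21% of all genes, with a median change of -2.43. The list was chosen with earlier results of these data known, and the activity of the kinases was not measured. DUSP6, the ERK phosphatase, stood at 11.04, 11.18 and 11.27 on the vehicle arrays and 6.73, 6.42 and 6.34 on the AZ628 arrays, a change of -4.67 (SE 0.16, adjusted p = 1.60e-13). The transcription factor ETV5 fell by 5.09 (-3.92 as the mean of its probe sets and -4.38 without shared ones) and MYC by 3.14 on the log2 scale. BRAF itself was not analysed here.

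The genes are described in 4 groups of lists: enterocyte differentiation, detoxification, transport and metabolism. Of 88 enterocyte genes measured, 37 were higher and 11 lower with AZ628, and of 138 detoxification genes 71 were higher and 21 lower, with medians of 0.12 and 0.21. The other groups leaned the opposite way in counts: 44 of 174 transport genes were higher and 56 lower, and 75 of 266 metabolic genes were higher and 98 lower, with medians of -0.03 and -0.04. Against the 22.5% and 21% of all genes, these are descriptions of lists chosen with earlier results of these data known, and the lists overlap in some genes. Within the groups, single lists lay far from the median of all genes in both directions. Fatty acid oxidation genes and the enzymes that oxidise, reduce or hydrolyse foreign compounds were mostly higher, and nucleotide, one-carbon, glycolytic and amino acid carrier genes mostly lower.

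**Figure D1:**
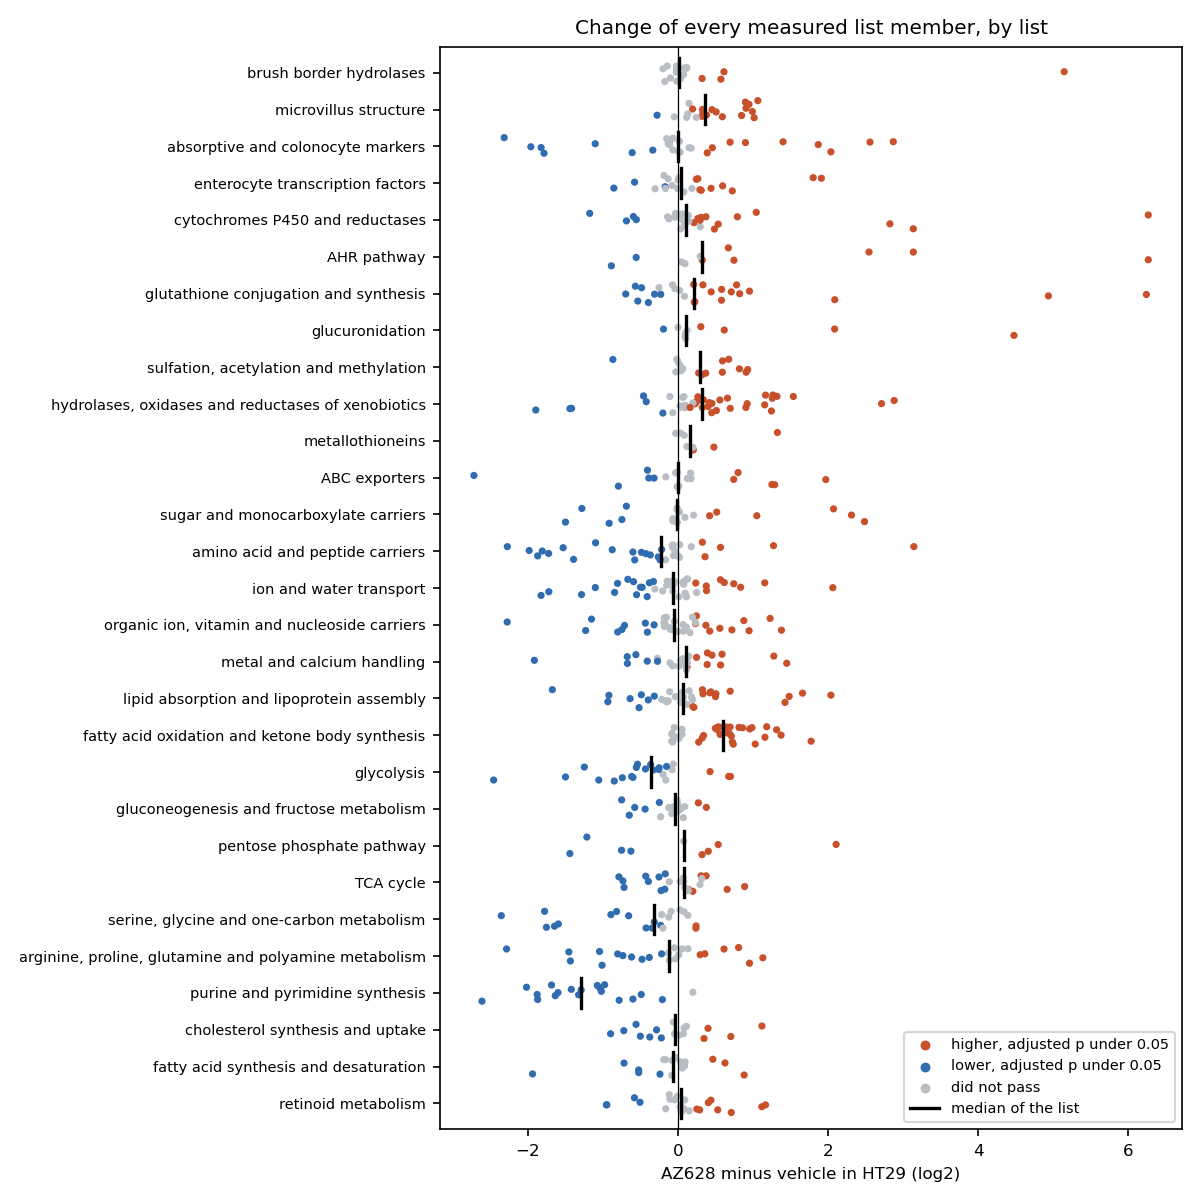
Change in log2 signal with AZ628 in HT29 (horizontal axis) for every measured member of the 29 enterocyte, detoxification, transport and metabolism lists (rows); orange members were higher and blue members lower at an adjusted p under 0.05, grey members did not pass, and the black tick is the list's median. The purine and pyrimidine list (median -1.29) lies to the left and fatty acid oxidation (median 0.60) to the right.

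Sucrase-isomaltase (SI), the brush border enzyme that splits sucrose and starch fragments, was among the largest rises of all genes. Its log2 signal was 2.72, 2.83 and 2.81 on the vehicle arrays and 8.05, 7.97 and 7.79 on the AZ628 arrays. The vehicle values are at the dim end of the array's range, and all 3 AZ628 arrays lay far above them, a change of 5.14 (SE 0.13, adjusted p = 1.13e-14); the mean of its 2 probe sets changed by 3.08. FABP1, the fatty acid binding protein that enterocytes and hepatocytes use to carry fatty acids in the cytosol, stood at 8.74, 8.66 and 8.77 with vehicle and 10.72, 10.83 and 10.74 with AZ628, a change of 2.04 (SE 0.10).

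The rise of SI was not shared by the brush border hydrolases as a list. Of 18 measured, 4 were higher (22.2%, near the 22.5% of all genes) and none was lower at an adjusted p under 0.05. The median change was 0.01. A mean log2 signal below 4.72, among the dimmest 25% of genes, was found for 11 of the 18, where a change would be hard to see. Leaving out those dim genes, 2 passed as higher, and leaving out vehicle array 2 or 3, 1 passed as lower. The peptidases that passed moved little: ENPEP, an aminopeptidase that removes acidic residues, rose by 0.61 (by 0.02, not passing, without shared probe sets), DPP4, which removes dipeptides from peptide ends, by 0.57, and ANPEP, the main brush border aminopeptidase, by 0.32, which did not pass without AZ628 array 1 (0.28) or vehicle array 1 (0.25). Intestinal alkaline phosphatase, ALPI, was 5.94, 5.84 and 5.71 with vehicle and 5.89, 5.97 and 5.99 with AZ628 (adjusted p = 0.37), and the groups overlap. Lactase, LCT, was 4.26, 3.76 and 3.77 with vehicle and 3.84, 3.84 and 3.81 with AZ628, within the range of dim probe sets on all 6 arrays.

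Most measured genes that build the microvillus rose. Of 22, 16 were higher and 1 lower, with a median of 0.36, though only 2 of the rises reached 2-fold. USH1C, the harmonin scaffold that anchors the links between microvillus tips, went from 8.16, 8.15 and 8.16 with vehicle to 9.20, 9.21 and 9.25 with AZ628 (change 1.06, SE 0.07), and ANKS4B, its partner in the same tip-link complex, changed by 1.01. The microvillar cadherin CDHR5 rose by 0.90, the syntaxin STX3, which delivers apical vesicles, by 0.95, and the actin bundler villin, VIL1, by 0.85. VIL1 was already bright with vehicle, at 10.34, 10.41 and 10.45, and reached 11.26, 11.17 and 11.32 with AZ628. The member that fell, BAIAP2L1, an adaptor that links membranes to actin, changed by -0.28. The tip-link cadherin CDHR2 (0.11) and the myosin MYO7B (0.13) did not pass.

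Markers used to recognise absorptive cells of small intestine and colon split in both directions. Of 27 measured, 9 were higher (33.3%) and 7 lower (25.9%), against 22.5% and 21% of all genes, with a median of 0.00. On the rising side were LGALS2, a galectin of the surface epithelium, at 6.62, 6.56 and 6.62 with vehicle and 9.50, 9.39 and 9.51 with AZ628 (change 2.87, SE 0.07), and the selenium-binding protein SELENBP1, at 7.66, 7.43 and 7.81 and 10.24, 10.27 and 10.07 (change 2.56). The membrane mucin MUC13 (1.40) and PHGR1 (1.87), a small protein of the gut epithelium, rose as well. On the falling side, carbonic anhydrase 2, CA2, went from 10.75, 10.78 and 10.70 to 9.03, 8.78 and 8.95, a change of -1.82 (SE 0.09). The adhesion molecules CEACAM6 (-2.31, or -1.38 as the mean of its probe sets), CEACAM1 (-1.96, or -1.07) and CEACAM5 (-1.78) fell too. Keratin 20, KRT20, the intermediate filament protein of differentiated surface cells, was 11.23, 11.33 and 11.13 with vehicle and 10.17, 10.02 and 10.19 with AZ628; the groups did not overlap and the change was -1.10 (SE 0.07, adjusted p = 5.47e-10). The chloride exchanger SLC26A3 (-0.07), FABP2 (0.15) and LGALS4 (0.00) did not pass, and the first of them was dim on all 6 arrays (2.99, 3.04 and 3.17 with vehicle, 3.14, 2.91 and 2.95 with AZ628).

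Among 22 transcription factors that enterocytes use, 9 were higher and 3 lower (median 0.05). ELF3, an ETS factor of epithelial differentiation, rose by 1.91, from 9.45, 9.28 and 9.63 to 11.32, 11.45 and 11.32, and the nuclear receptor NR5A2 by 1.80. CDX2, which specifies intestinal epithelium, was 6.63, 6.36 and 6.44 with vehicle and 7.17, 7.08 and 6.96 with AZ628, a change of 0.59 (SE 0.11), while its relative CDX1 changed by 0.01 and did not pass. PPARA, a receptor for fatty acids, rose by 0.72. PPARG, its relative, fell by 0.85 on the log2 scale. Without shared probe sets 1 factor passed as lower in place of 3. PPARGC1A, a coactivator of oxidative metabolism, was 8.31, 8.30 and 8.45 with vehicle and 8.25, 8.49 and 8.30 with AZ628 (adjusted p = 0.978).

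Counts for lists of the other intestinal cell types stand against 22.5% of all genes higher and 21% lower. The stem cell and Wnt list lay near those shares (26.3% higher, 21.1% lower). Of 17 goblet cell markers 4 were higher and 7 lower (median -0.14): TFF3, a secreted trefoil peptide, rose by 1.37 and BCAS1 by 1.91, while CREB3L1 (-2.25, or -1.29 as the mean of its probe sets), AGR3 (-1.63) and AGR2 (-1.16) fell, and the defining mucin MUC2 was 4.22, 4.50 and 4.26 with vehicle and 4.06, 4.06 and 4.44 with AZ628. Of 16 enteroendocrine markers SCG5 alone passed (1.22); 2 were higher without AZ628 array 1 or 3 or vehicle array 1, and 1 was lower without AZ628 array 1 or as the mean of probe sets, and of 19 stem cell and Wnt genes 5 were higher and 4 lower, with LGR5, the crypt stem cell receptor, going from 9.03, 9.37 and 9.24 to 7.19, 6.73 and 7.16 and AXIN2, a Wnt target, up by 1.36. Tuft and Paneth markers were higher in 5 and lower in 1 of 14 (3 higher without vehicle array 2), and M cell and squamous markers lower in 4 of 12, led by KRT13 (-1.35). Of 12 epithelial markers 5 were higher and 3 lower (1 lower without shared probe sets), and the median change was 0.15. EPCAM, an adhesion molecule of epithelia, was bright on every array, at 13.09, 13.39 and 13.23 with vehicle and 13.36, 13.20 and 13.50 with AZ628. Of 8 blood cell markers 1 was higher and 1 lower, with 2 lower without vehicle array 3, 0 higher and 2 lower as the mean of probe sets, and 0 lower without shared probe sets. The 7 endothelial markers changed by -0.13 to 0.22 without passing. Of 10 fibroblast markers LUM was higher (1.77) and FAP lower (-0.80); 0 were higher without shared probe sets. The summed log2 signal of the 8 blood markers was 48.4 to 49.6 with vehicle and 48.6 to 49.5 with AZ628, and that of the 10 fibroblast markers 42.8 to 43.3 and 43.7 to 43.9, ranges that do not overlap for the fibroblast list; their part in the results was not tested. The collagen gene COL1A1 (5.85, 5.44 and 5.64 with vehicle, 5.58, 5.60 and 5.62 with AZ628), which defines fibroblasts, did not pass, and neither did CD3E of T cells or HBB of red cells.

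CYP1A1, which oxidises polycyclic aromatic compounds, was the largest rise of all 18132 genes in HT29. It was 5.01, 5.43 and 5.59 on the vehicle arrays and 11.62, 11.38 and 11.82 on the AZ628 arrays, with no array of either group near the other, a change of 6.26 (SE 0.15, adjusted p = 5.56e-15) or 76.9-fold; the mean of its probe sets changed by 4.92. CYP1B1, its relative that AHR also induces, went from 8.87, 8.85 and 8.67 to 11.97, 11.94 and 11.88 (change 3.13, or 2.48 as the mean of its probe sets). The AHR repressor AHRR, itself an AHR target that limits the response, changed by 2.54 from 6.10, 5.98 and 6.22 to 8.77, 8.45 and 8.71 (1.27 as that mean), and TIPARP, an ADP-ribosyltransferase induced by AHR, by 0.75. The receptor moved the other way: AHR was 9.78, 10.02 and 9.73 with vehicle and 9.01, 8.89 and 8.96 with AZ628, a change of -0.89 (SE 0.11), while its partner ARNT rose by 0.67. NQO1, a quinone reductase that AHR and NRF2 induce, did not pass. It was 13.31, 13.37 and 13.35 with vehicle and 13.47, 13.41 and 13.44 with AZ628 (change 0.09, adjusted p = 0.128). As the mean of its probe sets it changed by 0.21, which passed. The activity of AHR was not measured, and its part in these changes was not tested. CYP1A2 changed by 0.30 (adjusted p = 0.0514) and passed without AZ628 array 3 (0.36) or vehicle array 1 (0.39). In all, 6 of 11 AHR pathway genes were higher and 2 lower (median 0.32). The promoter window of CYP1A1, chr15:74725529-74725778 on the minus strand of chromosome 15, is shown for the core of the AHR-ARNT recognition sequence, GCGTG, in capitals. This window, like those of the other promoters shown, holds the 250 bases before the gene start in the RefSeq annotation of GRCh38.p14, written 5′ to 3′ on the gene's strand.
CYP1A1: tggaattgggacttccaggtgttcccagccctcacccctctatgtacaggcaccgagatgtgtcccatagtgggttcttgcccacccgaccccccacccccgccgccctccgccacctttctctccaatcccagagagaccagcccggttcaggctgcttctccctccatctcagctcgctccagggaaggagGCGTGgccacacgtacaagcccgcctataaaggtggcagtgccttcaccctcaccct
The 1 match, searched on both strands, begins at position -57 from the gene start. The motif was chosen after the values were seen, and a match describes letters, not a bound site. GCGTG is common: it was in 32.2% of all 35116 RefSeq windows of that length and at 36.2% of the 27305 genes with one. In the AHR pathway list 5 of 9 genes with a window had it (55.6%), a share not particular to that list. Among the other lists it ran from 0 (blood cell markers) to 88.2% (cholesterol synthesis and uptake). It was 78.9% for purine and pyrimidine synthesis and 24% for the P450 list that also holds CYP1A1. The enhancers by which AHR is known to act on CYP1A1 lie further upstream and were not analysed here.

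Of the 30 cytochromes P450 and their reductases measured, 12 were higher and 4 lower, with a median of 0.11. CYP4X1, a P450 of little known function, went from 3.09, 3.35 and 3.21 to 6.13, 5.97 and 6.03 (change 2.82, SE 0.10), and CYP2C8, which oxidises drugs and arachidonic acid, rose by 1.04. The main intestinal drug-oxidising enzymes moved little, and their calls rest on the probe set used. CYP3A4 changed by 0.26 (adjusted p = 0.0383) from 4.13, 4.40 and 4.18 to 4.33, 4.48 and 4.69, which did not pass without AZ628 array 2 (0.28) or 3 (0.17) or vehicle array 1 (0.21) or 3 (0.24), as the mean of its probe sets (0.11) or without shared ones (0.09). CYP3A5 changed by 0.54 and did not pass without AZ628 array 1 (0.50) or 3 (0.53) or vehicle array 1 (0.36), or as the mean of its probe sets (0.25). CYP2S1, an epithelial P450, was the largest fall of the list (-1.18), and CYP27B1 (-0.59), which activates vitamin D, fell.

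Glutathione transferases of the alpha class were the other steep rise. GSTA1 was 5.50, 5.06 and 5.37 with vehicle and 11.63, 11.61 and 11.41 with AZ628, a change of 6.24 (SE 0.21), and GSTA2 was 5.28, 5.21 and 5.74 and 10.39, 10.40 and 10.24, a change of 4.93 (SE 0.14). Both enzymes conjugate glutathione to electrophiles and both are also abundant in enterocytes and hepatocytes. Their probe sets are of a kind that may cross-hybridise, so the 2 genes cannot be fully told apart here, and the second probe set of GSTA1, without that mark, changed by 0.13 and did not pass (adjusted p = 0.608); the mean of the probe sets of GSTA1 changed by 3.18. GSTA4, which clears lipid peroxidation products, rose by 2.09 from 10.15, 10.07 and 10.09 to 12.19, 12.17 and 12.22. The promoter windows of GSTA1 (chr6:52803817-52804066) and GSTA2 (chr6:52763476-52763725), both on the minus strand of chromosome 6, are shown for how alike they are, with the bases at which they differ in capitals.
GSTA1: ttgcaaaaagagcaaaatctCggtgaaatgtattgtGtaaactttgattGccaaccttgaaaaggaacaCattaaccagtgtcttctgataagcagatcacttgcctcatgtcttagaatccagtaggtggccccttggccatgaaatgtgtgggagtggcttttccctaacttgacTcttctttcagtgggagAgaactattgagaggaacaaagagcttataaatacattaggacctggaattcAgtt
GSTA2: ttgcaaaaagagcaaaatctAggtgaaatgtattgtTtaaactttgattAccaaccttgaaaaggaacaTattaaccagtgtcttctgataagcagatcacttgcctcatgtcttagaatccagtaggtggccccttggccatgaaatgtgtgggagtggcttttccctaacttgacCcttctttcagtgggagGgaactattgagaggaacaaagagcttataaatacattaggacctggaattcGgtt
The windows match at 243 of 250 bases (97.2%). The list as a whole was mixed, 14 of 26 higher and 7 lower (median 0.21). On the falling side were GSTO1 (-0.70), an omega-class transferase, GPX2 (-0.57), the gastrointestinal glutathione peroxidase, and 2 genes that sustain glutathione, the reductase GSR (-0.53) and GCLM (-0.49), the modifier subunit of the first synthetic enzyme.

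Among genes of conjugation with glucuronic acid and sulfate, more were higher than lower. UGT2B15, which glucuronidates androgens and drugs, went from 7.86, 7.66 and 7.87 to 12.16, 12.29 and 12.37, a change of 4.48 (SE 0.12) on a probe set that may also read its close paralogs, and UGT2A3 from 4.04, 3.77 and 3.92 to 5.85, 6.06 and 6.07 (change 2.09, or 1.47 as the mean of its probe sets). UGT2B7 rose by 0.62. In all, 4 of 11 glucuronidation genes were higher and 1 lower (median 0.10); the lower one was lost without any of 5 of the 6 arrays, and 2 were higher without shared probe sets. Sulfotransferases, acetyltransferases and related enzymes were higher in 9 of 16 and lower in 1 (median 0.30), or higher in 5 without those dim genes, among them the arylamine acetyltransferases NAT1 (0.93) and NAT2 (0.68) and the sulfotransferases SULT1C2 (0.91) and SULT2B1 (0.82). PAPSS1 and PAPSS2 both make the sulfate donor, and they parted: PAPSS1 rose by 0.59 and PAPSS2 changed by -0.87.

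Hydrolases, oxidases and reductases held the most rises of the detoxification lists, 26 of 41 higher and 6 lower (median 0.32). FMO5, a flavin-containing monooxygenase, stood at 6.38, 6.09 and 6.34 with vehicle and 9.14, 9.16 and 9.14 with AZ628 (change 2.88, SE 0.11). EPHX2, the soluble epoxide hydrolase that opens fatty acid epoxides, went from 6.78, 6.20 and 6.31 to 9.17, 9.10 and 9.15 (change 2.71, SE 0.11). For both genes the groups lay far apart. Alcohol dehydrogenases were higher in 5 of 7 and lower in none at an adjusted p under 0.05, with ADH6 up by 1.54 and ADH1C by 1.27; without AZ628 array 3 the count was 3. ALDH1A1, which oxidises retinaldehyde and other aldehydes, rose by 1.17, and AKR1C2, an aldo-keto reductase of steroids, by 1.26. Another 2 aldo-keto reductases fell (1 without shared probe sets): AKR1B10, which reduces retinal and is often raised in tumours, was 14.07, 14.08 and 14.05 with vehicle and 12.67, 12.59 and 12.62 with AZ628 (change -1.44), and AKR1B15, a close paralog that may share its signal, changed by -1.89. ALDH1B1, a mitochondrial aldehyde dehydrogenase of crypt cells, fell by 1.42 on the log2 scale. Of 8 metallothionein genes, which bind zinc and cadmium, 3 were higher, led by MT1F (1.32), and none was lower at an adjusted p under 0.05. These genes are much alike, and 0 were higher without shared probe sets.

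**Figure D2:**
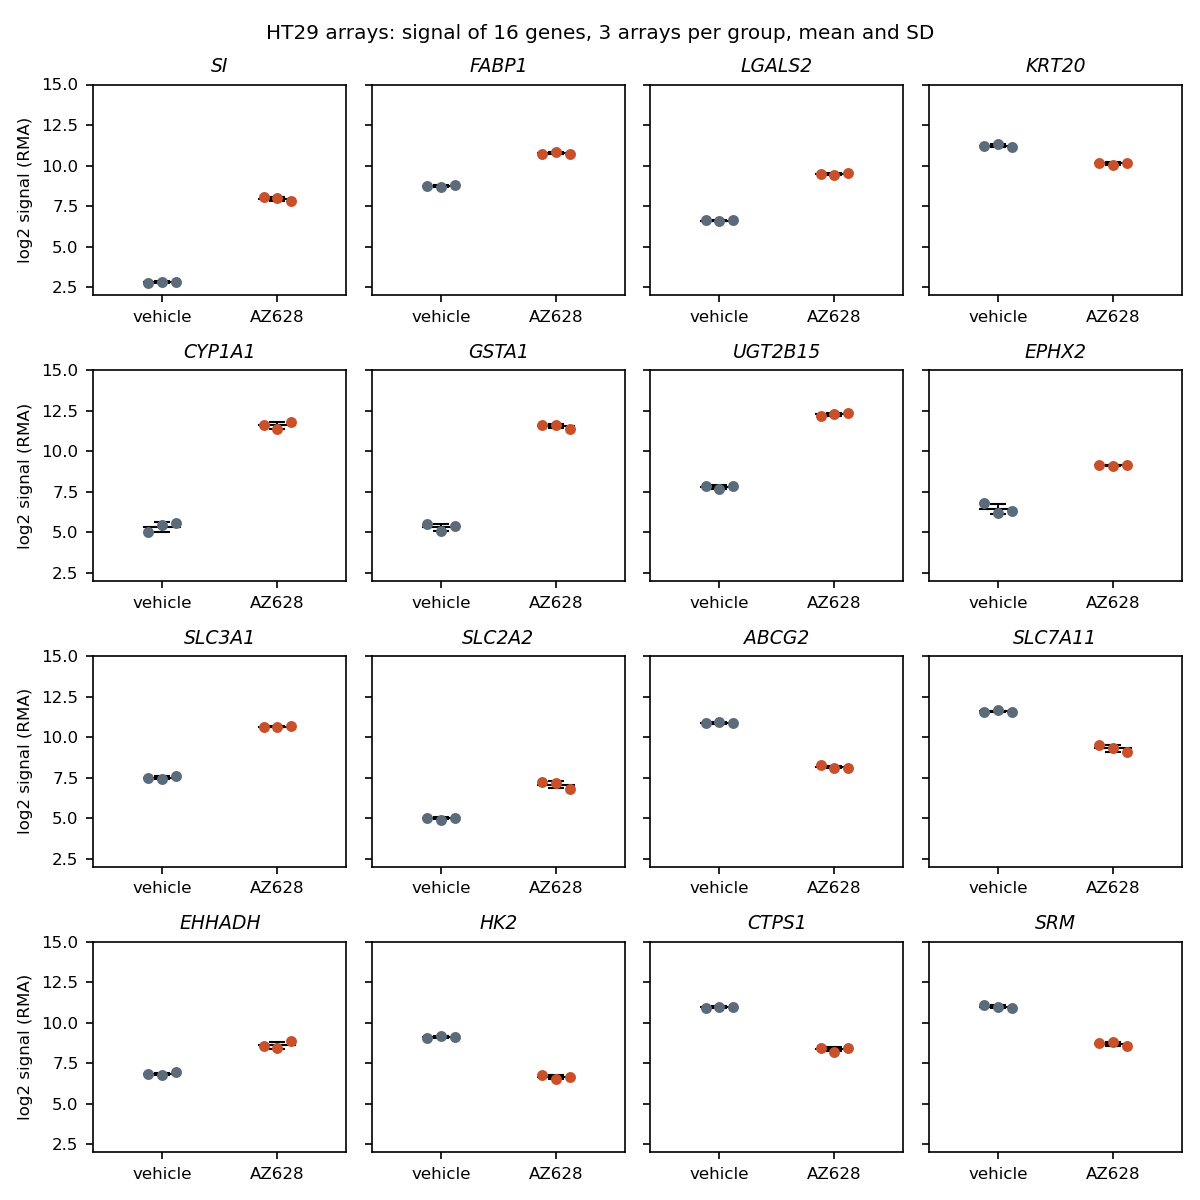
Log2 signal (vertical axis) of 16 genes on the 3 vehicle and 3 AZ628 arrays of HT29; points are arrays, and the bar and whiskers are the mean ± SD of 3 arrays. SI rises from the dim end of the range, CYP1A1 and GSTA1 rise further, and ABCG2, SLC7A11, HK2, CTPS1 and SRM fall, with no overlap between the groups in those genes.

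Transporters moved in both directions, and the exporters of foreign compounds were among them. ABCG2, which pumps drugs, urate and porphyrins across the apical membrane, was 10.84, 10.92 and 10.87 on the vehicle arrays and 8.25, 8.10 and 8.12 on the AZ628 arrays, a change of -2.72 (SE 0.05, adjusted p = 1.93e-15). ABCB1, the P-glycoprotein exporter, did not pass (6.65, 6.38 and 6.28 and 6.46, 6.78 and 6.46, adjusted p = 0.502). ABCC2, which exports glutathione and glucuronide conjugates, rose by 0.74, and ABCC4 (-0.79) and ABCC3 (-0.41), which export conjugates and bile acids, fell. The lipid exporters ABCA5 (1.97), ABCA1 (1.29, or 0.42 as the mean of its probe sets) and ABCG1 (1.25) rose. Over the list, 5 of 18 ABC exporters were higher and 5 lower (27.8% each, against 22.5% and 21% of all genes), with a median of 0.00.

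Among the sugar and monocarboxylate carriers, 6 of 21 were higher and 5 lower (median -0.01). These are 28.6% and 23.8%, near the 22.5% and 21% of all genes. The glucose carriers parted by type. SLC2A2 (GLUT2), the basolateral carrier of absorptive cells, went from a mean of 4.98 ± 0.07 (SD, n = 3) to 7.05 ± 0.21 without overlap of the groups, a change of 2.07 (SE 0.09), and SLC2A12, a relative, rose by 2.48. SLC2A1 (GLUT1), the carrier of growing cells, went from 11.14, 11.32 and 11.18 to 9.72, 9.65 and 9.78, a change of -1.50 (SE 0.07). SLC5A1 (SGLT1), which takes up glucose with sodium at the brush border, fell as well, from 7.77, 7.57 and 7.92 to 6.46, 6.46 and 6.49 (change -1.28). The fructose carrier SLC2A5 did not pass (0.00), and SLC16A4, of the monocarboxylate carrier family, rose by 2.31 (2.98 without shared probe sets).

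Amino acid and peptide carriers leaned down, with 17 of 32 lower and 5 higher and a median of -0.23. SLC7A11, which imports cystine for glutathione synthesis, was 11.56, 11.64 and 11.54 with vehicle and 9.51, 9.32 and 9.09 with AZ628 (change -2.27, SE 0.10). SLC7A5, which carries large neutral amino acids, changed by -1.98 (-1.04 as the mean of its probe sets). The glutamine carriers SLC38A5 (-1.87) and SLC1A5 (-1.53) and the arginine carriers SLC7A2 (-1.81) and SLC7A1 (-1.72) fell. Of the 5 carriers that rose, 3 form the dibasic amino acid carriers of absorptive epithelium. SLC3A1, the subunit that forms the apical cystine and dibasic amino acid carrier with SLC7A9, went from 7.47, 7.40 and 7.62 to 10.62, 10.61 and 10.70 (change 3.14, SE 0.13), or by 2.07 as the mean of its probe sets and 1.05 without shared ones. SLC7A9 rose by 0.57 and SLC7A7, a basolateral dibasic carrier subunit, by 1.27. The peptide carrier SLC15A1 did not pass (4.07, 4.52 and 4.25 and 4.39, 4.25 and 4.26).

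Ion and water transport genes were higher in 9 of 41 (22%) and lower in 14 (34.1%), against 22.5% and 21% of all genes (median -0.07). AQP11, a water channel of intracellular membranes, rose by 2.06 and the anion exchanger SLC26A6 by 0.83. The phosphate carrier SLC20A1 (-1.72), the sulfate carrier SLC26A2 (-1.28), the bicarbonate carrier SLC4A4 (-1.10) and the calcium-activated potassium channel KCNN4 (-0.84) fell. The chloride channel CFTR did not pass (0.08). Carriers of vitamins, nucleosides and organic ions were higher in 10 of 35 and lower in 9 (median -0.05). These are 28.6% and 25.7%, against 22.5% and 21% of all genes. The choline carrier family member SLC44A4 rose by 1.38 and the ascorbate carrier SLC23A1 by 0.72. The nucleoside carrier SLC29A2 (-1.23, or -0.53 as the mean of its probe sets), the folate carrier SLC19A1 (-1.15) and the organic anion carrier SLCO4A1 (-2.27, or -1.25) fell. Of 27 genes of metal and calcium handling 9 were higher (33.3%) and 6 lower (22.2%), with a median of 0.10. The zinc importers went opposite ways, SLC39A5 by 1.28 and SLC39A8 by -1.91 (-0.62 as the mean of its probe sets). The transferrin receptor TFRC, which imports iron, fell by 0.68 on the log2 scale.

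Fatty acid oxidation was the metabolic list with the most rises: 25 of 34 measured genes were higher and none was lower at an adjusted p under 0.05, with a median of 0.60. EHHADH, the bifunctional enzyme of peroxisomal oxidation, was 6.83, 6.77 and 6.93 with vehicle and 8.58, 8.43 and 8.85 with AZ628, a change of 1.77 (SE 0.16). CROT, which moves peroxisomal products on as carnitine esters, rose by 1.37, the dehydrogenase ACADSB by 1.16 and the reductase DECR1, needed for unsaturated chains, by 1.03. CPT1A, the carnitine palmitoyltransferase that admits long chains to mitochondria, did not pass (10.57, 10.68 and 10.56 and 10.55, 10.47 and 10.54). For lipid absorption and lipoprotein assembly, 13 of 36 were higher (36.1%) and 8 lower (22.2%), against 22.5% and 21% of all genes (median 0.07). Without shared probe sets 7 were higher. Beside FABP1, the lipid droplet proteins CIDEB (1.66) and CIDEC (1.48) and the acyl-CoA synthetase ACSL1 (1.43) rose. GPAT3, which starts triglyceride synthesis, fell by 1.67 and the fatty acid carrier SLC27A4 by 0.93 on the log2 scale.

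Nearly every measured gene of nucleotide synthesis fell. Of 19 purine and pyrimidine genes 18 were lower and none was higher at an adjusted p under 0.05, with a median of -1.29, and 13 of the falls reached 2-fold. CTPS1, which makes CTP, had a mean of 10.98 ± 0.04 (SD, n = 3) with vehicle and 8.37 ± 0.13 with AZ628 without overlap of the groups, a change of -2.61 (SE 0.07), while its paralog CTPS2 alone did not pass (0.20, adjusted p = 0.0533), though it did without AZ628 array 3 (0.23). PFAS (-2.02, -0.89 as the mean of its probe sets and -0.40 without shared ones) and PAICS (-1.87) carry out middle steps of purine synthesis, CAD (-1.88) the first steps of pyrimidine synthesis, and RRM2 (-1.68) is the small subunit of ribonucleotide reductase. The promoter windows of PPAT, which commits to purine synthesis, and ATIC, which completes it, are shown for CACGTG, the E-box that MYC can bind, in capitals. Both genes were chosen after their values were seen and because their windows hold the motif. Their changes were -1.32 and -1.42. PPAT's window is chr4:56435616-56435865 on the minus strand of chromosome 4, and that of ATIC is chr2:215311809-215312058 on the plus strand of chromosome 2.
PPAT: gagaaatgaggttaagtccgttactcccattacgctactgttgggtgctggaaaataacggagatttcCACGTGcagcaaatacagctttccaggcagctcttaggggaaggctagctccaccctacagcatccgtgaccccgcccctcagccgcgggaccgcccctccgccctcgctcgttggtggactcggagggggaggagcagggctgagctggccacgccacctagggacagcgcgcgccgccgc
ATIC: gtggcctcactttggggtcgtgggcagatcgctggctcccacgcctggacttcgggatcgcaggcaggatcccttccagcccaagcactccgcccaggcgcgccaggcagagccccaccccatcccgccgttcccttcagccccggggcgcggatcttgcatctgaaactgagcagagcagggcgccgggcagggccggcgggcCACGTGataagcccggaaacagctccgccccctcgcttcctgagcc
The match begins at position -182 in PPAT and at -46 in ATIC. CACGTG reads the same on both strands and shares no full match with GCGTG. It was in 3 of the 19 windows of the list (15.8%), those of ATIC, DHODH and PPAT, in 6.34% of all windows and at 7.73% of all genes. CTPS1, PFAS, PAICS, CAD and RRM2 did not have it in theirs. Among the other lists the share ran from 0 (pentose phosphate pathway among them) to 26.1% (glycolysis).

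Genes of one-carbon, polyamine and sugar metabolism were lower in part. Of 21 genes of serine, glycine and one-carbon metabolism 12 were lower and 2 higher (median -0.32), with 1 higher without AZ628 array 2 or 3 or vehicle array 1 or 3. The folate enzymes led: MTHFD1L went from 10.18, 10.31 and 10.14 to 7.87, 7.74 and 7.96 (change -2.35, SE 0.07), and MTHFD1 (-1.78), MTHFD2 (-1.75) and thymidylate synthase TYMS (-1.59) fell. PHGDH, the first enzyme of serine synthesis, did not pass (0.13), while PSAT1, which acts in the next step, fell by 1.64 on the log2 scale. In the arginine, proline, glutamine and polyamine list, 11 of 24 were lower and 6 higher (median -0.12). The polyamine enzymes fell, with spermidine synthase SRM at 11.08, 10.95 and 10.93 with vehicle and 8.74, 8.82 and 8.55 with AZ628 (change -2.28, SE 0.08), ornithine decarboxylase ODC1 at -1.43 and AMD1 at -1.04. Ornithine aminotransferase OAT (1.13) and glutamine synthetase GLUL (0.95) rose.

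**Figure D3:**
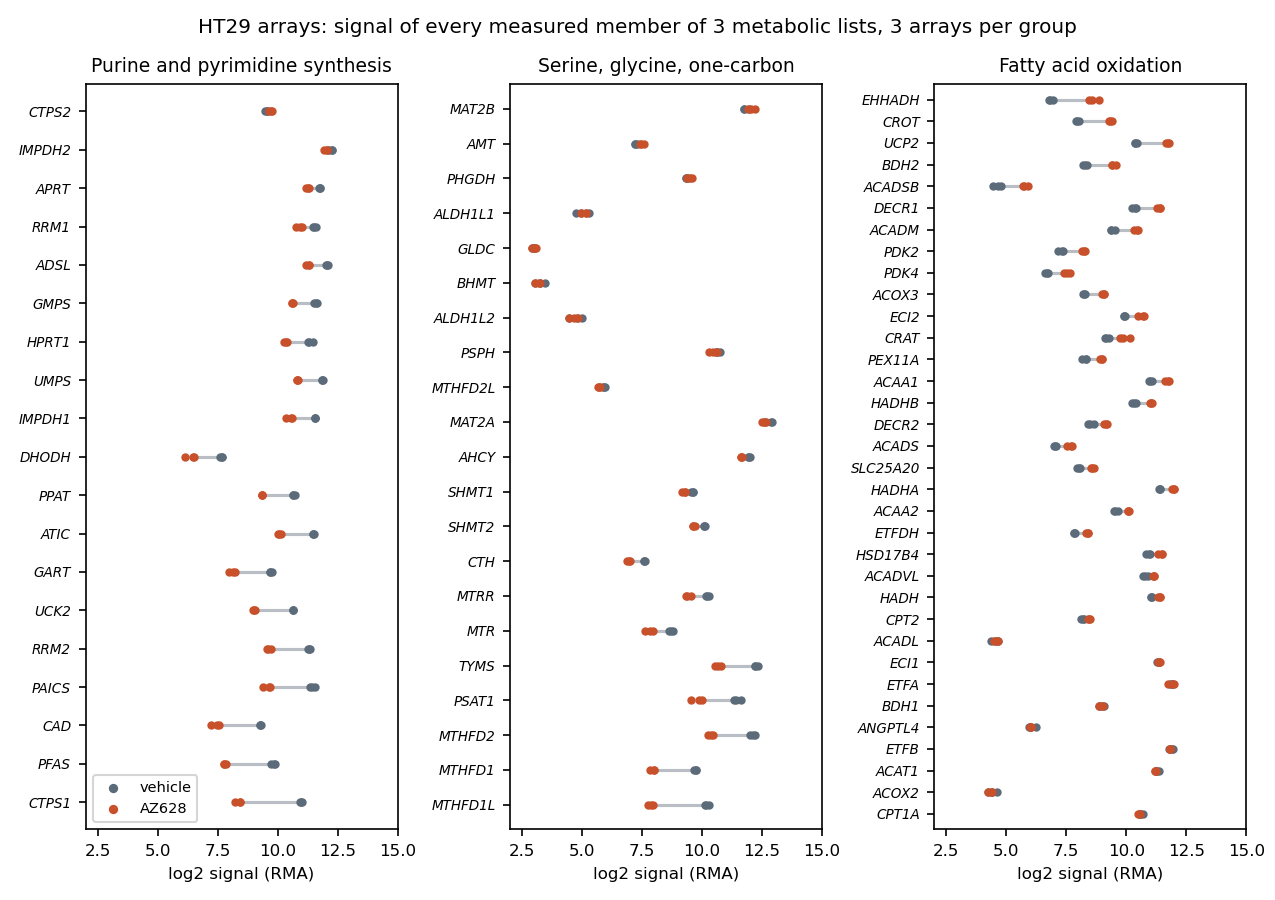
Log2 signal (horizontal axis) of every measured member of 3 metabolic lists (rows) on each vehicle and AZ628 array of HT29; points are arrays. In the purine and pyrimidine panel 18 of 19 genes were lower with AZ628, in the serine and one-carbon panel 12 of 21, and in the fatty acid oxidation panel 25 of 34 were higher.

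Glycolytic genes were lower in 16 of 23 and higher in 3 (median -0.36), with 9 lower without shared probe sets. HK2, the hexokinase of growing cells, went from 9.04, 9.19 and 9.10 to 6.76, 6.52 and 6.67 (change -2.46, SE 0.08, or -1.28 as the mean of its probe sets), and the platelet-type phosphofructokinase PFKP (-1.25), enolase ENO1 (-1.05) and pyruvate kinase PKM (-0.85) fell. ALDOC (0.70) and PFKFB4 (0.68), an aldolase and a regulator of phosphofructokinase, rose, and GAPDH (-0.08) and PGK1 (-0.06) did not pass; as the mean of its probe sets PGK1 changed by -0.20, which passed. In gluconeogenesis and fructose metabolism 2 of 19 were higher (10.5%) and 5 lower (26.3%), against 22.5% and 21% of all genes (median -0.04). The 2 became 1 without AZ628 array 1 or 3 or vehicle array 2 or 3. KHK, which phosphorylates fructose, fell by 0.65 on the log2 scale, and PCK1, the rate-limiting enzyme of gluconeogenesis, was 4.56, 4.68 and 4.11 with vehicle and 4.38, 4.01 and 4.28 with AZ628, passing only without vehicle array 3 (-0.40). In the pentose phosphate list of 9, ribokinase RBKS went from 6.49, 6.46 and 6.30 to 8.57, 8.41 and 8.59 (change 2.11, or 1.10 as the mean of its probe sets), and PRPS1 (-1.44) and PRPS2 (-1.21), which make the ribose donor of nucleotides, fell. TCA cycle genes were higher in 6 of 24 (25%) and lower in 9 (37.5%), with a median of 0.07. The NADP-linked isocitrate dehydrogenases IDH2 (0.89) and IDH1 (0.66) rose. The NAD-linked subunit IDH3A (-0.73) and the malic enzymes ME2 (-0.79) and ME1 (-0.72) fell.

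Sterol and fatty acid synthesis moved less. Of 18 genes of cholesterol synthesis and uptake 4 were higher (22.2%) and 7 lower (38.9%), against 22.5% and 21% of all genes (median -0.04). TM7SF2, a sterol reductase, rose by 1.12, and ACAT2 changed by -0.90 and FDPS by -0.72. Of 18 genes of fatty acid synthesis 3 were higher (16.7%) and 5 lower (27.8%), with a median of -0.06. ELOVL6, which elongates saturated chains, went from 9.40, 9.49 and 9.37 to 7.51, 7.50 and 7.45 (change -1.94, SE 0.06), and the synthase FASN changed by -0.52. In retinoid metabolism 8 of 24 were higher and 4 lower (median 0.04). RETSAT, which saturates retinol, rose by 1.12, and RBP4 (-0.95), the plasma retinol carrier, and DHRS9 (-0.95), a retinol dehydrogenase, fell.

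Most of the larger changes in HT29 had the same direction in WiDr. Of the 588 genes at least 2-fold higher, 569 were also higher in WiDr, 19 did not pass there and 0 were lower; the WiDr comparison passed 44.6% of all genes. Of the 726 at least 2-fold lower, 711 were lower, 12 did not pass and 3 were higher. A change of at least 2-fold in the same direction was reached in WiDr by 448 of the 588 and 606 of the 726. The change itself differed between the lines, by a test of the HT29 change minus the WiDr change, for 1667 genes (9.19%; 4.06% with a higher change in HT29 and 5.13% with a lower one), and for 175 (0.965%) the adjusted p was under 0.05 and the difference at least 2-fold. At an adjusted p under 0.05 and any size, the difference passed for 222 of the 588 higher and 196 of the 726 lower genes. Those genes were chosen for the size of their change in HT29. SI and the alpha-class glutathione transferases rose more in HT29. SI changed by 5.14 in HT29 and 2.99 in WiDr (difference 2.15, SE 0.19), from vehicle means of 2.79 and 2.87. GSTA1 differed by 2.46 (SE 0.29; -0.14 on its second probe set, not passing, and 1.16 on average) and GSTA2 by 2.69 (SE 0.20), LGALS2 by 1.30 and the cytochrome CYP4X1 by 2.72; CYP4X1 changed by 0.10 in WiDr. The basolateral glucose carrier SLC2A2 changed by -0.05 in WiDr, and the difference was 2.12 (SE 0.13, adjusted p = 2.19e-08).

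Other list members changed more in WiDr, or in the opposite direction. The nicotinamide methyltransferase NNMT was 4.25, 4.62 and 3.99 with vehicle and 4.31, 4.01 and 4.49 with AZ628 in HT29 (change -0.02), against -3.78 in WiDr. All 6 HT29 signals of NNMT were dim, below 4.72, where a fall would be hard to see. The paraoxonase PON1, a lactonase, changed by 0.42 in HT29 and 4.18 in WiDr, the retinaldehyde dehydrogenase ALDH1A3 by 0.71 and 3.51, and the coactivator PPARGC1A by -0.01 and 2.25. The differences for these 4 genes were 3.76, -3.76, -2.80 and -2.26. Averaged over all probe sets of each gene, the difference was 1.36 for SI, -2.35 for PON1, -2.06 for ALDH1A3 and -0.96 for PPARGC1A, all still passing. Opposite directions that passed in both lines were seen for 91 of all 18132 genes, with 5 in the transport group and 1 in the metabolism group. Among the list members were SLC4A4 (-1.10 in HT29, 0.97 in WiDr) and the cholesterol acyltransferase SOAT1 (-0.92 and 0.92). The pyruvate carrier SLC16A7 (-0.75 and 0.84) and the cyclooxygenase PTGS1 (-0.53 and 1.48) were others, and not all are named. The averaged differences were -0.92 for SLC4A4 and -1.31 for PTGS1. The dose and duration are not given in the labels for either line, so a difference in treatment and a difference between lines cannot be told apart. Against 4.06% and 5.13% of all genes, differences that passed at an adjusted p under 0.05 were above 0 for 15 and below 0 for 26 of 138 detoxification genes, and in the same order 14 and 33 of 266 metabolic genes, 22 and 20 of 174 transport genes, and 6 and 13 of 88 enterocyte genes.

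**Figure D4:**
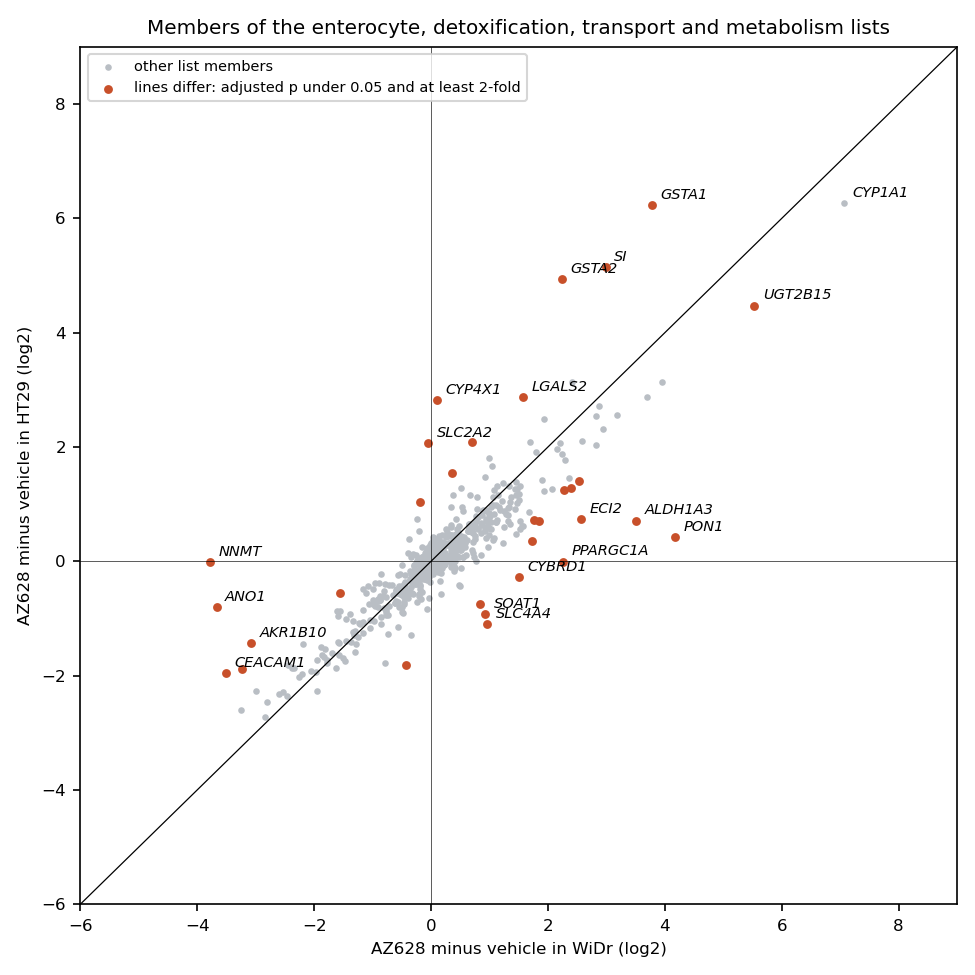
Change in log2 signal with AZ628 in WiDr against the change in HT29 for 655 list members; points are genes, the diagonal marks equal change, and orange points are the 31 genes whose difference between lines passed and was at least 2-fold. Of these, 15 lie on the side of a higher change in HT29 and 16 on the side of a higher change in WiDr, while most other genes lie along the diagonal.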

How the data were processed

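RNA was measured on 18 Affymetrix PrimeView arrays. The deposited values are log2 signals per probe set from RMA (background correction, quantile normalization and summary); RMA, limma and R 3.0.2 are named in the submitters' processing notes. The scanner files were not used here. Of 49395 probe sets, 102 were controls, 44994 had 1 gene symbol in the platform annotation, 1832 several and 2569 none, leaving 18132 genes. All 18 arrays in 6 groups were fitted with limma 3.58.1 (lmFit, eBayes; R 4.3.3, with data.table version 1.17.8), with 12 residual and 4.49 prior degrees of freedom; figures used Python 3.11.15, pandas 2.3.3 and matplotlib 3.10.9. In simulated data 100 of 18132 genes were changed. The fit recovered 89% of these at 1.5-fold and 100% at 2-fold, with 14 false calls at each size. In HT29 7899 genes (43.6%) passed, so the simulation differs from the data in that respect and does not give the error of the calls here.

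The members and lists were chosen with earlier results of these data known. Of 880 list entries 783 were measured and 97 not analysed here. Genes were named from the 15 largest rises and falls without overlap, up to 6 passing members of each list in each direction, the 4 brightest that did not pass, a fixed set of intestinal genes, and the 10 largest differences between lines in each direction; exceptions are stated, and not all list members under this rule are printed. Promoter windows are from RefSeq GRCh38.p14. Alternatives covered the probe set rule, dim genes, normalization, the arrays fitted, the spread model, a replicate block, a fold minimum and leaving out each array.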

Additional observations from a re-analysis of the deposited data

Results flagged for a closer look

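Of 216 genes named in the text, 93 had a change with AZ628 that differed between HT29 and WiDr. The threshold was an adjusted p under 0.05 in the limma fit, and 30 of these differed by at least 2-fold. Over all 18132 genes the shares were 9.19% and 0.965%. The named genes were chosen in part for large changes or large differences between lines, so their counts do not compare with those shares. All values here are the HT29 change minus the WiDr change on the log2 scale, from 3 arrays per group. Genes whose change was higher in HT29 were NNMT (3.76), UNC93A (3.47), CYP4X1 (2.72), GSTA2 (2.69), BTNL8 (2.55), GSTA1 (2.46), SI (2.15) and SLC2A2 (2.12). NNMT did not rise in HT29, where it was dim with vehicle and with AZ628, and its difference came from a fall in WiDr. For AKR1B10 (1.64), CEACAM1 (1.56), LGR5 (1.41) and AKR1B15 (1.35) a positive difference stands beside a fall in HT29. UGT2A3 (1.39), LGALS2 (1.30), CYP2C8 (1.23) and ADH6 (1.18) rose more in HT29.

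Genes whose change was lower in HT29 than in WiDr were PON1 (-3.76), CLDN2 (-2.99), ALDH1A3 (-2.80), PPARGC1A (-2.26), SLC4A4 (-2.07), PTGS1 (-2.02), SOAT1 (-1.84) and SLC16A7 (-1.59). The carbonic anhydrase CA2 (-1.39) belongs with them. MUC13 (-1.13), ABCA1 (-1.11), NDRG1 (-1.07), UGT2B15 (-1.06) and SLC23A1 (-1.04) rose in HT29 and had a higher change in WiDr. For NDRG1 the difference was -0.07 and for LGR5 0.49 as the mean of the gene's probe sets, and neither passed then. Averaged in the same way, the difference was -0.46 for ABCA1, -0.39 for SLC23A1, 0.76 for UGT2A3, 0.625 for CEACAM1 and 1.57 for BTNL8, each still passing.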

How the results depend on the processing

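The counts of higher and lower genes, of genes differing between lines, and of the 4 groups of lists kept within 1.5 times of their main values under every alternative except a further minimum of 2-fold. That minimum left 588 higher and 726 lower genes, 175 differing between lines, 10 enterocyte genes higher and 5 lower, 20 and 4 for detoxification, 15 and 19 for transport, and 15 and 31 for metabolism. Leaving out each HT29 array in turn gave 3789 to 3934 higher and 3552 to 3717 lower genes, each array of either line 1309 to 1519 differing between lines, and each HT29 array 64 to 66 detoxification genes higher, 33 to 37 enterocyte genes higher, 53 to 58 transport genes lower and 92 to 97 metabolic genes lower. Without shared probe sets 3461 were higher and 3375 lower of 16703 genes. No called change of a named gene in HT29 turned its direction; the difference between lines turned for GSTA1 without shared probe sets (-0.14) and for PPARA as the mean of its probe sets (0.0010), neither passing. The cause was not tested. Deviations of same-numbered HT29 arrays correlated at -0.056, -0.233 and -0.102, so the replicate numbers gave no sign of pairing. Those of differently numbered arrays correlated at -0.205 to 0.283, and a pairing in another order was not tested. With the replicate number as a block 3984 genes were higher, 3713 lower and 1350 differed between lines. The number of arrays, and signals near background, limit the precision.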

Other observations

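The pathway lists hold no histone genes. Of 33 measured H2A and H2B genes of the clustered families, which encode the core histones that pack DNA, 16 were higher and 3 lower at an adjusted p under 0.05, against 22.5% and 21% of all genes, with a median change of 0.21; 12 of the rises and none of the falls reached 2-fold. The family and its members were chosen after their values were seen. H2BC21 was 5.92, 5.71 and 6.28 on the vehicle arrays and 9.09, 9.05 and 9.29 on the AZ628 arrays, a change of 3.18 (SE 0.14) or 0.91 as the mean of its probe sets, and H2BC5 (3.04) and H2AC8 (2.88) rose similarly. Their groups did not overlap. These genes are near-identical copies, so a probe set may read several, and 9 were higher without shared probe sets. Lower counts moved with single arrays: 1 without AZ628 array 2 or vehicle array 1, and 0 without vehicle array 2.

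Several of the steepest changes belong to no list. NDRG1, a stress- and differentiation-related gene, went from 8.49, 8.40 and 8.58 with vehicle to 12.08, 12.08 and 12.20 with AZ628 (change 3.63, or 2.27 as the mean of its probe sets), and TP53INP1, a p53-induced stress protein, from 7.34, 7.50 and 7.74 to 11.16, 11.18 and 11.12 (change 3.62, or 1.99). Both groups stood clear of each other. SELENOP, the plasma selenium carrier, rose by 4.50, the prostaglandin-degrading enzyme HPGD by 3.22, and MYCL, a MYC family member, by 3.53 (1.95 as the mean of its probe sets) while MYC fell. NUPR1, a stress-induced chromatin protein, rose by 3.44. On the falling side, CEMIP, a hyaluronan-binding protein, went from 11.18, 11.23 and 11.19 to 6.37, 5.99 and 5.83 (change -5.14, or -2.81 as the mean of its probe sets), the chemokine receptor CXCR4 changed by -4.01, and NOX1, the colonic NADPH oxidase, by -3.19 (-2.17 as that mean). DTL and MCM10, both of DNA replication, changed by -3.03 and -2.88.

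The other genes among the 15 largest rises were TMED6 (4.74), UNC93A (3.79), BTNL8 (3.35, or 2.14 as the mean of its probe sets) and TENT5C (3.26, or 2.13). The other genes among the 15 largest falls were CLDN2, a claudin of leaky tight junctions (-4.68), MYEOV (-4.00, or -2.56 as that mean), LRP8, a lipoprotein receptor (-3.38), and CSPG4, a membrane proteoglycan (-2.84, or -2.05), with 3 genes of the MAPK output list, the ETS factors ETV1 (-3.74, or -1.24) and ETV4 (-3.00) and the feedback inhibitor SPRY4 (-2.90, or -1.001).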
